A study of Mus musculus with 12 samples.

Results

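The miR-297, miR-466, miR-467 and miR-669 families are groups of closely similar mouse miRNAs, most of which are encoded side by side within a single intron of the gene Sfmbt2. Members were chosen by name alone, as every annotated mouse miRNA hairpin whose symbol is Mir297, Mir466, Mir467 or Mir669 with or without a letter and a locus number. In GENCODE release M21 this rule gave 81 of the 2202 annotated miRNA hairpins, and 1174 of the 2202 carry a Mir symbol. The miR-297 family had 6 hairpins, miR-466 had 28, miR-467 had 17 and miR-669 had 30. When loci that differ only by a locus number were joined, the 81 hairpins reduced to 45 member names. Among the 81 hairpins, 63 distinct sequences were present, with lengths of 54 to 127 nt. Sequenced tags that matched these hairpins summed to 2796 counts on 196 distinct tags, out of 30022027 counts of tags that matched any annotated hairpin with a Mir symbol.

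A miRNA is cut from a hairpin precursor by Drosha and Dicer, and either the 5′ or the 3′ arm of the hairpin can be loaded into Argonaute. Target choice depends largely on the seed, bases 2 to 8 of the loaded strand, so a shift of the 5′ end by a single base gives another seed. Sfmbt2 encodes a Polycomb group protein, and the miRNA cluster in its intron is known for its expression in the early embryo, in embryonic stem cells and in the placenta. Many members contain runs of alternating purines and pyrimidines such as UG and CA repeats, so that their sequences overlap with simple repeats of the genome.

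Small RNA of about miRNA size was isolated from the hippocampus of individual male C57BL/6NCrl mice of 6 to 8 weeks and sequenced as 12 libraries, 1 library per mouse. The untreated mice (NT) received no electroconvulsive shock (ECS), which is a brief current that causes a synchronous discharge of neurons throughout the brain, and the other mice were killed at 0.5, 1, 3, 6 or 24 h after ECS. Each group had 2 mice, 1 in a first time course (suffix -1) and 1 in a second time course (suffix -2), so every time course had 6 libraries. The labels name no transgene and no agent other than ECS, and no sham group was analysed here.

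Accepted reads ranged from 3674297 (NT-1) to 6792932 (24h-1) in the first time course and from 1897490 (6h-2) to 7657222 (0.5h-2) in the second. Between 10.07% (6h-1) and 69.64% (6h-2) of them matched a hairpin with a Mir symbol, and these are called miRNA counts. Over the 12 libraries, 5 neuronal miRNAs (miR-124, miR-9, miR-128, miR-132 and miR-138) made up 6.076% to 31.22% of the miRNA counts, and all 5 were detected in each library. All values below are counts of tags that matched a hairpin exactly over their whole length. Levels are given as RPM, which here means counts per 1000000 miRNA counts of the same library. In bulk tissue, fewer cells of a type and less RNA per cell cannot be told apart.

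Of the 81 hairpins, 71 lie in Sfmbt2, which spans chr2:10370510-10595253 on the plus strand of GRCm38. All 71 lie on the strand of the gene in a single intron, chr2:10461473-10523944, which is intron 10 in one annotated transcript of 23 exons and intron 11 in another. From Mir466m to Mir669h the hairpins cover 51.617 kb, chr2:10466663-10518279, with a median gap of 209 bp between neighbours. Its middle is a tandem array in which a miR-467, a miR-466 and a miR-669 hairpin recur in this order, with few gaps. Of the 13 distances between the starts of consecutive miR-467 hairpins, 11 were between 2413 and 2470 bp. The other 10 members lie elsewhere: Mir466q (in Tnik), Mir466k and Mir669n on chromosome 3, Mir467g on chromosome 5, Mir297-1 on chromosome 7, Mir467h on chromosome 9, Mir466j on chromosome 10, Mir467f on chromosome 11 and Mir466i and Mir466f-4 on chromosome 13.

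Hairpins that carry abundant tags of each family are shown 5′ to 3′ as GENCODE gives them, with the most abundant tag of each arm in capitals. They show how the tags of one arm face those of the other across the loop, and how alike the families are outside the capitals.
Mir467e (chr2:10505721-10505807): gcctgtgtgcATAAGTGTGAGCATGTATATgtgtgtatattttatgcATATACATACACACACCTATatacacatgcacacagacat
Mir669c (chr2:10509296-10509404): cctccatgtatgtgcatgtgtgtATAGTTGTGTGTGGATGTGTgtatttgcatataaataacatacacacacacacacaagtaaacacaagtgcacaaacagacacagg
Mir669a-10 (chr2:10498911-10498997): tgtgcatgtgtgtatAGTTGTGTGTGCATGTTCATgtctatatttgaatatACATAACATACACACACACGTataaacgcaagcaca
Mir466b-4 (chr2:10486423-10486512): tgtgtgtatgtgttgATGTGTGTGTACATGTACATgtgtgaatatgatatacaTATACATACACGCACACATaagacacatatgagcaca
Mir297b (chr2:10511667-10511775): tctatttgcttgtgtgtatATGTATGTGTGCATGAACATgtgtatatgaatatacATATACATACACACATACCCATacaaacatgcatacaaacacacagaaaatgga

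Abundant tags of each family, on which the results turn, are printed as deposited, 5′ to 3′, with the seed in capitals.
miR-467e 5′ arm, 20 nt: aTAAGTGTgagcatgtatat
miR-669c 5′ arm, 20 nt: aTAGTTGTgtgtggatgtgt
miR-467e 5′ arm, 22 nt: aTAAGTGTgagcatgtatatgt
miR-669a and miR-669o 3′ arm, 21 nt: aCATAACAtacacacacacgt
miR-297a, miR-297b and miR-297c 3′ arm, 22 nt: aTATACATacacacatacccat
miR-467e 5′ arm, 18 nt: aTAAGTGTgagcatgtat
miR-466, miR-466b, miR-466c, miR-466d, miR-466e and miR-466p 3′ arm, 19 nt: tATACATAcacgcacacat
Over the 12 libraries these 7 tags had 384, 355, 169, 109, 56, 55 and 53 counts in the order shown. The last was added after its value was seen.

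Most counts could be placed in the Sfmbt2 cluster, but not always on a single hairpin. Of the 2796 counts, 98.07% matched hairpins of the cluster and no other member, 43 counts matched hairpins both inside and outside it, and 11 counts (0.3934%) matched hairpins elsewhere only. Every tag belonged to 1 family and 1 arm. A single hairpin was matched by 59.19% of the counts and a single member name by 61.55%. No tag matched a hairpin with another Mir symbol, whereas 951 counts (34.01%) also matched an annotated hairpin with only a Gm symbol. In Sfmbt2 there are 48 such Gm hairpins, and none had a count that was not shared with a member.

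At least 1 count was found for 73 of the 81 hairpins, 67 of 71 in the cluster and 6 of 10 elsewhere. The 8 hairpins without a count were Mir466l, Mir669g, Mir669i and Mir669j in the cluster and Mir466f-4, Mir466j, Mir467g and Mir669n elsewhere, where a count of 0 allows up to 3 counts over all libraries. Only 23 hairpins had a count that no other hairpin shared. The plot of counts along the cluster shows that the unshared counts were concentrated on few loci. Mir467e had 760 counts of its own and Mir669c had 425, followed by Mir467d with 139, Mir467c with 110, Mir466g with 45, Mir297b with 42 and Mir669f with 38. By contrast, the 10 Mir467a hairpins matched the same 426 counts and had 0 of their own, since their tags are identical.

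**Figure D1:**
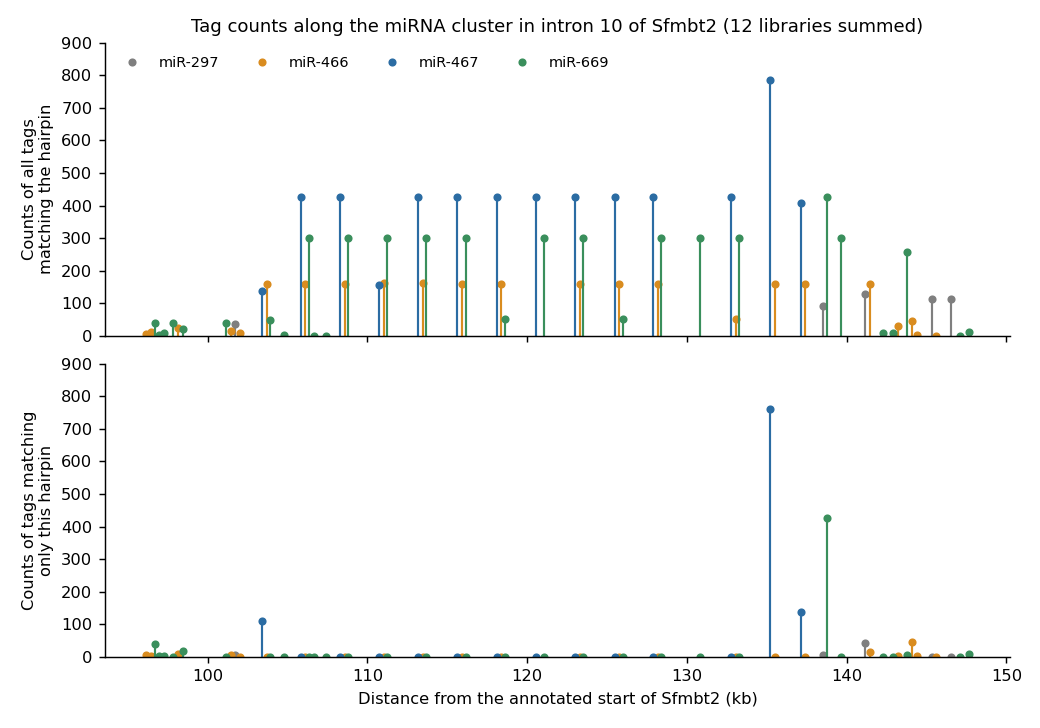
Counts of tags over the 12 libraries for the 71 hairpins in intron 10 of Sfmbt2, by distance from the annotated start of the gene in kb and coloured by family; the upper panel counts a shared tag at each hairpin it matches and the lower panel counts tags that match that hairpin only. The recurring miR-467 peaks of 426 counts in the upper panel are absent from the lower one, where Mir467e (760) and Mir669c (425) stand out.

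The 4 families together were a minor part of hippocampal miRNA. Their level was 293.2 RPM in NT-1, 123.7 in 0.5h-1, 261.4 in 1h-1, 86.6 in 3h-1, 159.3 in 6h-1 and 86.5 in 24h-1. In the second time course it was 60.02 in NT-2, 83.93 in 0.5h-2, 47.92 in 1h-2, 55.46 in 3h-2, 195.2 in 6h-2 and 62.8 in 24h-2. The level after ECS lay between those of the untreated libraries in 8 of 10 libraries and below both in 1h-2 and 3h-2. The 313 counts of NT-1 give a share of 0.02932% (Wilson 95% interval 0.02625% to 0.03275%), and the 257 counts of NT-2 one of 0.006002% (0.005312% to 0.006782%). No molecular identifiers were used, so these intervals take in counting error alone and not that of PCR. The first time course had a mean level of 168.5 ± 89.12 (SD, n = 6), against 84.23 ± 55.7 (SD, n = 6) for the second, which was the lower one at 5 of 6 time points. When levels were taken per 1000000 accepted reads instead, the order turned, and the means were 41.82 ± 25.96 (SD, n = 6) and 50.94 ± 41.98 (SD, n = 6).

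**Figure D2:**
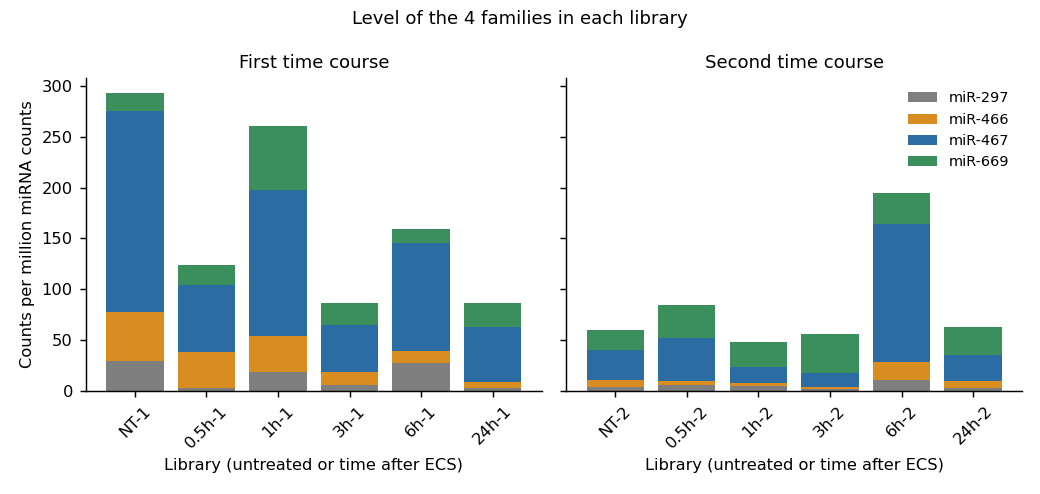
Level of the 4 families in each of the 12 libraries, as stacked bars in RPM, with the first time course on the left and the second on the right. The blue miR-467 segment is the tallest in every library of the first time course, and 6h-2 (195.2) stands above the other 5 libraries of the second (47.92 to 83.93).

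The miR-467 family held 1461 counts, which is 52.25% of all counts of the 4 families. The miR-669 family held 851 (30.44%), miR-466 held 315 (11.27%) and miR-297 held 169 (6.044%). The family with the most hairpins after miR-669, miR-466, thus gave fewer counts than miR-467 with 17 hairpins. The balance of arms differed between families. On the 5′ arm lay 79.12% of the miR-467 counts (1156 of 1461) and 65.1% of the miR-669 counts (554 of 851). The 3′ arm held 80% of the miR-466 counts (252 of 315) and 53.85% of the miR-297 counts (91 of 169).

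Within families the balance of arms varied between libraries. In the miR-467 family the 5′ arm held 57.78% to 96.55% of the counts, so it exceeded the 3′ arm in all 12 libraries. The miR-669 family ranged from 29.27% on the 5′ arm (6h-2) to 90.82% (1h-2). The miR-297 family ranged from 0% to 100% on 5 to 31 counts per library, which is too few to order the libraries.

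By level per library, the miR-467 family had 197.6 RPM in NT-1, 66.11 in 0.5h-1, 143.9 in 1h-1, 45.97 in 3h-1, 107 in 6h-1 and 54.51 in 24h-1. It had 30.13 in NT-2, 42.61 in 0.5h-2, 15.8 in 1h-2, 14.23 in 3h-2, 136.2 in 6h-2 and 25.56 in 24h-2. Apart from 6h-2, all libraries of the second time course lay below all libraries of the first. The miR-669 family, which spanned 13.66 to 63.89 in the first time course and 19.85 to 37.86 in the second, overlapped between the time courses. The miR-466 family spanned 5.856 to 48.71 in the first and 1.929 to 17.41 in the second, and the miR-297 family 2.703 to 29.04 and 1.447 to 10.59, so both also overlapped.

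Counts were uneven among members. A tag that matched several member names was split equally between them for these values. Of the 45 names, 38 had a count, on 62 arms, and the 10 largest arms held 75.02% of the counts. These were miR-467e-5p (751), miR-669c-5p (425), miR-467d-5p (139), miR-467a-3p and miR-467d-3p (133.5 each), miR-669a-3p and miR-669o-3p (124.8 each), miR-467c-5p (110), and miR-467a-5p and miR-467b-5p (78 each). The 3 pairs with equal values share their tags and are not independent. By mean share over the libraries, miR-467e-5p ranked at place 237 of the 1065 miRNA arms with a count (35.7 RPM) and miR-669c-5p at place 315 (12.27 RPM).

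The most abundant member arm, miR-467e-5p, had 74 counts in NT-1, 66 in 0.5h-1, 120 in 1h-1, 38 in 3h-1, 22 in 6h-1 and 70 in 24h-1. In the second time course it had 61 in NT-2, 107 in 0.5h-2, 27 in 1h-2, 34 in 3h-2, 73 in 6h-2 and 59 in 24h-2. At the depth of each library these counts stand for 25.31 to 88.13 RPM in the first time course and 6.883 to 55.24 in the second, with the second lower at 5 of 6 time points. Between the untreated mice alone it differed from 69.32 RPM (Wilson 95% interval 55.22 to 87.01) to 14.25 (11.09 to 18.3), and the levels after ECS fell on both sides of these values.

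The second arm in abundance, miR-669c-5p, behaved otherwise. It had 3 counts in NT-1, 14 in 0.5h-1, 24 in 1h-1, 19 in 3h-1, 3 in 6h-1 and 25 in 24h-1. In the second time course it had 20 in NT-2, 68 in 0.5h-2, 82 in 1h-2, 122 in 3h-2, 9 in 6h-2 and 36 in 24h-2. All counts of this hairpin were on the 5′ arm, with 0 on the 3′ arm, which allows up to 3. The untreated libraries held 2.81 RPM (NT-1, Wilson 95% interval 0.9557 to 8.263) and 4.671 (NT-2, 3.024 to 7.215). In the first time course the level was 7.979 in 0.5h-1, 17.63 in 1h-1, 12.66 in 3h-1, 6.828 in 6h-1 and 11.26 in 24h-1. The second had 17.45 in 0.5h-2, 20.9 in 1h-2, 29.42 in 3h-2, 6.811 in 6h-2 and 8.763 in 24h-2. All 10 libraries after ECS thus lay above both untreated libraries, although the interval at 6h-1 (2.322 to 20.08, from 3 counts) includes both untreated values and that at 6h-2 (3.583 to 12.95, from 9 counts) includes the value of NT-2.

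Among the 10 member arms tested, miR-669c-5p was the only arm with this separation, and it was also the only one of all 469 miRNA arms tested (0.213%). This order was noticed after the values were seen. With library scaling by TMM, a scaling that sets aside the most extreme arms, 6h-1 (4.874) fell below NT-2 (5.124), so that the separation was lost and no member arm showed it, against 2 of 469 arms (0.426%). Within each time course the untreated library remained the lowest on the TMM scale, with 1.873 against 4.874 to 14.89 in the first and 5.124 against 10.51 to 44.11 in the second. The tests of each time point against the untreated mice are given below.

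**Figure D3:**
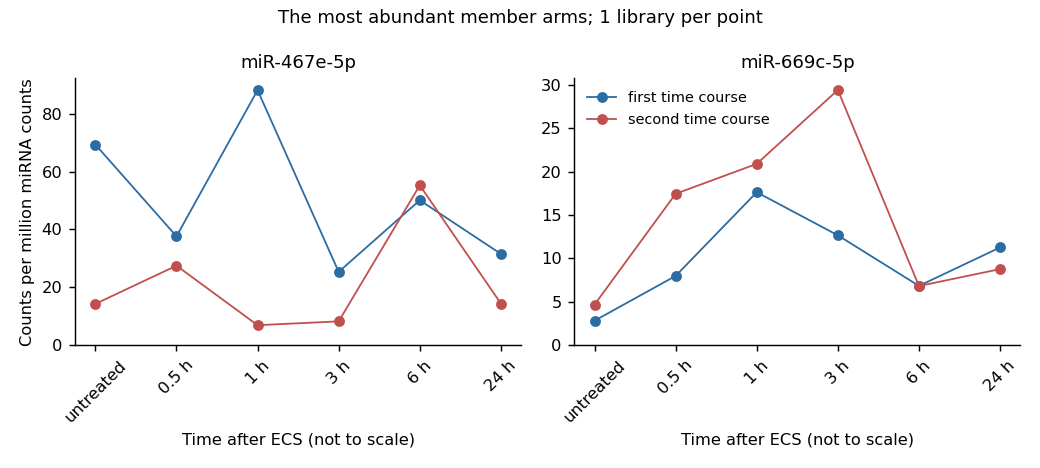
Level of miR-467e-5p (left) and miR-669c-5p (right) in RPM, with 1 point per library, joined within the first (blue) and second (red) time course; the horizontal axis lists the time points and is not to scale. The untreated libraries are the lowest points of miR-669c-5p in both time courses, at 2.81 and 4.671, and no such order is seen for miR-467e-5p.

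The ratio of the counts of these arms, which does not depend on the depth or scaling of a library, moved widely. It was highest in NT-1, with 24.67 counts of miR-467e-5p per count of miR-669c-5p, on only 3 counts of the latter, while NT-2 had 3.05. The lowest ratios were 0.2787 in 3h-2 and 0.3293 in 1h-2, the 2 libraries in which miR-669c-5p had more counts than miR-467e-5p. In the other shocked libraries the ratio lay between 1.574 (0.5h-2) and 8.111 (6h-2). Both hairpins lie in the same intron, with 4 other member hairpins between them.

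The 5′ arms of the miR-467 members differ by few bases, and some of these bases lie in the seed. The 20-nt windows are shown in lower case, aligned at the base before the shared taagtg, to let the differences be read against miR-467e.
miR-467e: ataagtgtgagcatgtatat
miR-467c: ataagtgcgtgcatgtatat
miR-467d: ataagtgcgcgcatgtatat
Counted from 1 at the first base shown, miR-467c differs from miR-467e by T8C and A10T, and miR-467d by T8C and A10C. Position 8 is the last base of the seed when a tag starts at position 1, and it is inside the seed when a tag starts at position 2.

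Most tags of these arms started at either of the first 2 positions of the window, which gives each arm a pair of seeds. Of the miR-467e tags, 656 counts (87.35%) started with ATAAGTG and 95 with TAAGTG. Among counts at either start, the share at the first base was lower for miR-467c, at 58.18% (64 against 46 counts). For miR-467d it was 52.99% (71 against 63 counts), or 51.08% of all counts of its 5′ arm. The counts of miR-467e that started at the second base were concentrated in NT-1, with 33 of 95. In the same library, 21 of the 63 such counts of miR-467d were found, against 3 that started at the first base.

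Some other member arms were more uniform, and others were not. The main start held 98.59% of the miR-669c-5p counts and 94.8% of those of miR-669a-3p and miR-669o-3p. It held 82.22% for miR-467a-3p and miR-467d-3p, 69.23% for miR-466d-3p and 60.81% for miR-466b-3p. For the 7 member arms with at least 30 counts that matched a single name, the median share at the main start was 87.35%, with a range of 51.08% to 98.59%. The 517 other miRNA arms with at least 30 counts had a median of 95.64% and a range of 19.46% to 100%. The member arms share tags and precursors, so no test of this difference was made.

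Among the 12 seeds with the most counts, those of 3′ arms could be shared between families, and those of 5′ arms were not. The seed TAAGTGT had the most counts, 657, from miR-467e and 1 count of miR-467h. TAGTTGT followed with 419 counts, all from miR-669c. The seed TATACAT had 361 counts and was read from the 3′ arms of 16 member names in all 4 families. ATACATA, the seed of the same 3′ arms shifted by a base, had 155 counts from 13 names. CATAACA, with 237 counts, came from the 3′ arms of miR-669a, miR-669o and miR-669p.

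The remaining large seed groups belonged to miR-467 5′ arms. TAAGTGC had 146 counts from miR-467a, miR-467b, miR-467c and miR-467d, AAGTGCC had 144 from miR-467a and miR-467b, AAGTGCG had 109 from miR-467c and miR-467d, and AAGTGTG had 95 from miR-467e. None of the 12 seeds with the most member counts was the seed of the main tag of any other miRNA arm in these libraries. The 253 counts with AAGTGC at bases 2 to 7 share these letters with 1 other arm, miR-350-5p, whose main tag had 22 counts.

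The length of the tags differed sharply between libraries. Tags of 18 or 19 nt made up 69.65% of the member counts in NT-1, 35.48% in 0.5h-1, and 10.94% to 14.29% in the other 4 libraries of the first time course. In the second time course they made up 0% to 7.752%. Tags of 22 nt or more made up 0.9585% to 11.46% of the member counts in the first time course and 31.01% to 42.51% in the second, without overlap. Other miRNAs of the same libraries shifted in the same direction, from 4.538% to 51.4% short tags in the first time course against 0.9105% to 3.78% in the second. The share of short tags was furthest above that of the other miRNAs in 0.5h-1, at 35.48% against 7.117%. It was below theirs in 1h-1, 3h-1, 6h-1 and 3h-2 and above it in the remaining 8 libraries.

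The tags of miR-467e show the same shift within a single arm. The 20-nt tag had 4, 32, 113, 33, 21 and 48 counts in the first time course and 24, 29, 4, 10, 40 and 26 in the second, in the order of the time points. The 22-nt tag, which has the same start and seed, had 0, 2, 0, 0, 0 and 3 counts in the first and 27, 64, 13, 17, 16 and 27 in the second. Summed, the 22-nt tag had 5 counts in the first time course and 164 in the second, while the 20-nt tag had 251 and 133. Each library of the second time course thus had more 22-nt tags of miR-467e than any library of the first. Its cause was not tested.

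**Figure D4:**
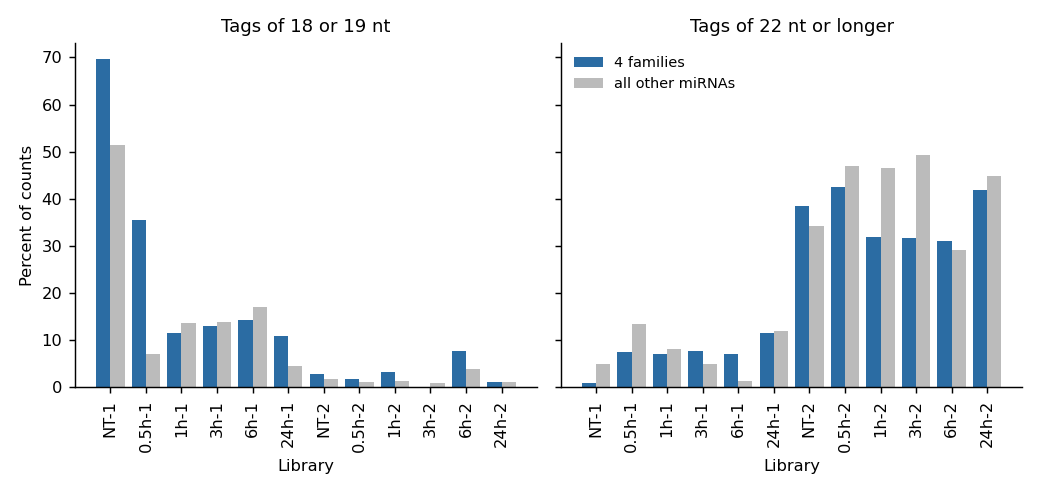
Percent of counts on tags of 18 or 19 nt (left) and of 22 nt or longer (right) in each library, for the 4 families (blue) and for all other miRNAs (grey). Long tags of the families make up 31.01% to 42.51% in the 6 libraries with suffix -2 and at most 11.46% in those with suffix -1.

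Whether members differed between the time courses was tested with edgeR's quasi-likelihood test on TMM-scaled counts, with the time point as a covariate, over all miRNA arms that reached 10 counts in 2 or more libraries. An arm was called at a Benjamini-Hochberg adjusted p under 0.05 over all arms tested. Of the 62 member arms with a count, 10 passed the filter, the 10 listed above. None of the 10 was called, against 152 of all 469 arms (32.4%), of which 94 were higher and 58 lower in the second time course. DESeq2 also called 0 of the 10, against 222 of the 469 arms (47.3%). At an unadjusted p under 0.05 there was 1 member arm, against 215 of 469 (45.8%). Scaled by total miRNA count alone, the median log2 fold change of all arms moved from 0.29 to -0.30, and the split of calls from 94 higher and 58 lower (61.8% higher) to 49 higher and 113 lower (30.2% higher).

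The 10 member arms had a median log2 fold change of -0.81, against 0.29 over all arms, with 4 arms above 0 and 6 below. The arm with the smallest p, miR-669c-5p, had a log2 fold change of 1.10 (SE 0.47, edgeR adjusted p = 0.08178). It was above 0 under all scalings tried, and lowest, at 0.51 (0.5050), with the total count alone. For miR-467e-5p the value was -0.89 (SE 0.55, edgeR adjusted p = 0.2148). miR-467a-5p had the lowest value, -1.29 (SE 0.87, edgeR adjusted p = 0.2594), and miR-669o-3p the highest, 1.32 (SE 0.93, edgeR adjusted p = 0.2772). However, miR-467a-5p and miR-467b-5p, which share their tags, reached 10 counts only in NT-1, 0.5h-1 and 1h-1. These libraries belong to the time course in which both arms were higher, so both entered the test only by being high there. Their values are no support for a difference, although they are among the 6 arms below 0 and enter the median. All miR-467 arms but miR-467c-5p (0.03) were below 0, and all miR-669 arms above it, but none of these differences exceeded the spread between libraries at the threshold used.

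With each family arm entered once, in place of its members, all 8 family arms passed the filter, and 153 of all arms tested were called (32.8%), 94 higher (20.1%) and 59 lower (12.6%) in the second time course. At an unadjusted p under 0.05 there were 2 family arms, against 216 of all arms (46.3%). The 1 family arm called was the 5′ arm of the miR-466 family. It reached 10 counts only in 0.5h-1 (17 counts) and 24h-1 (10 counts), both of the time course in which it was higher, so it entered the test only by being high there, and its call is no support for a difference.

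This arm had 6, 17, 5, 3, 3 and 10 counts in the first time course and 3, 7, 4, 0, 2 and 3 in the second, in the order of the time points. Its level averaged 5.385 ± 2.677 RPM (SD, n = 6) at first and 0.9601 ± 0.6406 (SD, n = 6) in the later course. The highest value of the second (1.797) stayed below the lowest of the first (1.999), as was the case for 56 of all arms tested with family arms (12%). The log2 fold change was -1.99 (SE 0.72, edgeR adjusted p = 0.04821), and with no filter on low counts, where 17.1% of all arms were called, it was not called (edgeR adjusted p = 0.1108). Leaving out 1 library leaves its partner at that time point without a counterpart, so either omission drops the same pair from the comparison. Without 0.5h-1 or 24h-1 the arm was not tested. It also lost its call without NT-1 (edgeR adjusted p = 0.06984), 1h-1 (0.07134), 3h-1 (0.09491), 6h-1 (0.05157), NT-2 (0.07437), 0.5h-2 (0.1154), 1h-2 (0.07012), 3h-2 (0.1151) or 24h-2 (0.07645).

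The 5′ arm of the miR-297 family had a larger difference but a wider spread, with a log2 fold change of -2.42 (SE 0.97, edgeR adjusted p = 0.06611). Its counts were 27, 3, 8, 3, 12 and 4 in the first time course and 1, 10, 8, 1, 1 and 0 in the second, so that NT-1 and 6h-1 held 39 of the 57 counts of the first. Most of the 27 counts in NT-1 came from a single tag of miR-297 and miR-297a that had 22 counts there. DESeq2 called this arm (adjusted p = 0.007302) as well as the 5′ arm of miR-466 (adjusted p = 0.02361), with 47.8% of all arms called. The value rested on single time points, since leaving out either library of a time point drops the same pair from this comparison. It was -3.30 without 0.5h-1 and -3.24 without 0.5h-2, while it shrank to -1.64 without NT-1 or NT-2. The 3′ arms of both families did not pass, with -1.21 for miR-466 (SE 0.92, edgeR adjusted p = 0.3169) and 0.58 for miR-297 (SE 0.86, edgeR adjusted p = 0.6195). The last value turned to -0.09 without 6h-2.

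The arms of the larger families differed less. For the miR-467 family the log2 fold change was -0.86 on the 5′ arm (SE 0.53, edgeR adjusted p = 0.2168) and -1.07 on the 3′ arm (SE 0.73, edgeR adjusted p = 0.2599). Without 6h-1 the miR-467 5′ arm was called at -1.26 (SE 0.46, edgeR adjusted p = 0.04867). Leaving out 1 library moved it between -0.64 (without NT-1 or NT-2) and -1.36 (without 6h-2), and moved the 3′ arm between -0.54 (without 1h-1) and -1.73 (without 6h-2). For the miR-669 family it was 0.68 on the 5′ arm (SE 0.46, edgeR adjusted p = 0.2599) and 0.81 on the 3′ arm (SE 0.70, edgeR adjusted p = 0.3819). With the total miRNA count alone these values for miR-669 fell to 0.08 and 0.25, so their direction rests on small differences.

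The main question of the series was whether miRNA levels change after ECS. Against the untreated mice, 0 of 469 arms were called at any of the 5 times (0%), and therefore 0 of the 10 member arms, and 0 arms with family arms in place of members (0%). DESeq2 also called 0 member arms and 0 family arms at each time. An unadjusted p under 0.05 was reached by 9 of the 469 arms at 0.5 h (1.92%), by 2 at 1 h (0.426%) and 10 at 3 h (2.13%). Later it was reached by 9 arms at 6 h (1.92%) and 7 at 24 h (1.49%). A single member arm, miR-669c-5p at 3 h, was among them. With the time course as a replicate block, such a p was found for 26 arms (5.54%) at 0.5 h, 12 arms (2.56%) at 1 h, and 24 arms (5.12%) both at 3 h and at 24 h. At 6 h it was found for 32 arms (6.82%), and no member arm was called at any time. In that fit miR-669c-5p was among them at 0.5, 1, 3 and 24 h, together with miR-467a-3p and miR-467d-3p, which share their tags, at 0.5 h. With family arms the numbers were 10 at 0.5 h (2.14%), 2 at 1 h (0.428%) and 9 at 3 h (1.93%), then 10 at 6 h (2.14%) and 7 at 24 h (1.50%). They included a single family arm, the miR-467 3′ arm at 0.5 h. All 5 comparisons share the 2 untreated libraries.

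For miR-669c-5p, the log2 fold change against the untreated mice was 1.79 at 0.5 h (SE 1.08, edgeR adjusted p = 0.9882), 2.07 at 1 h (SE 1.08, adjusted p = 0.9990), 3.03 at 3 h (SE 1.12, adjusted p = 0.9994), 1.10 at 6 h (SE 1.10, adjusted p = 0.9939) and 1.72 at 24 h (SE 1.08, adjusted p = 0.9878). None passed the adjusted threshold. With the time course as a replicate block, the adjusted p ranged from 0.5723 at 3 h to 0.9987 at 1 h. Without the block the standard errors were 1.08 to 1.12. Differences of this size were then not told apart from the spread between the 2 libraries of a time point. Those libraries differ in both mouse and time course. In the fit with the block, the standard errors at 0.5, 1, 3 and 24 h were 0.82 to 0.84. The log2 fold change in that fit was 1.81 at 0.5 h and 3.01 at 3 h (edgeR unadjusted p = 0.003017 at 3 h). At 6 h it was 1.15, and the unadjusted p was not under 0.05. No time passed the adjusted threshold in either fit.

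For miR-467e-5p, the same comparisons gave log2 fold changes between -0.56 at 3 h (SE 1.09, edgeR adjusted p = 0.9994) and 0.98 at 6 h (SE 1.09, edgeR adjusted p = 0.9939). Over the 10 member arms the median log2 fold change was -0.45 at 0.5 h, -1.18 at 1 h and -1.31 at 3 h, against 0.15, -0.0030 and 0.15 over all arms. It was 1.04 at 6 h and -0.68 at 24 h, against 0.01 and 0.23. At 6 h 7 of 10 member arms were above 0, and at the other times 3 or 4 were. The 10 arms include pairs that share their tags, so they are not independent values. The share of all arms above 0 was not taken. At 6 h both libraries were extreme in depth, since 6h-1 had the fewest miRNA counts (439336) and 6h-2 the fewest accepted reads (1897490).

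Among family arms the miR-467 3′ arm had the lowest unadjusted p against untreated in the fit without the block. It had 61 counts in NT-1, 30 in NT-2, 4 in 0.5h-1 and 9 in 0.5h-2, or 57.14 and 7.006 RPM in the untreated libraries against 2.28 and 2.31 at 0.5 h. Both libraries at 0.5 h thus lay below both untreated ones, as they did for 46 of all arms in this table (9.85%), among them the 3′ arm of miR-297. The log2 fold change was -3.34 (SE 1.42, edgeR adjusted p = 0.9840), and at 6 h it was 1.41 (SE 1.30, edgeR adjusted p = 0.9921), from 43.25 and 57.51 RPM. The plot of fold changes shows that the bars of 1 standard error crossed 0 for most family arms at each time after ECS.

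**Figure D5:**
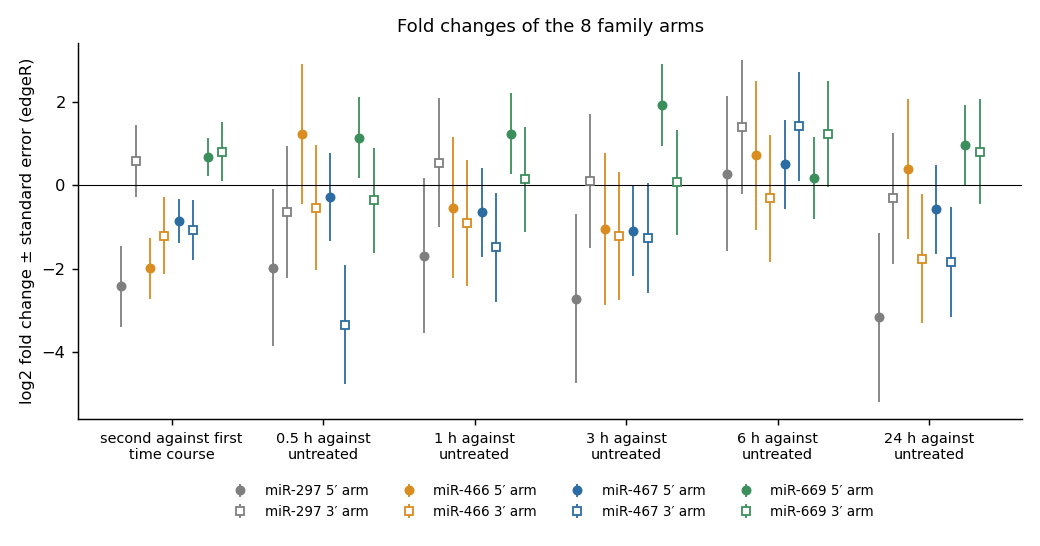
Log2 fold changes of the 8 family arms with their standard errors (edgeR), for the second against the first time course (6 against 6 libraries) and for each time after ECS against untreated (2 against 2); filled circles are 5′ arms and open squares 3′ arms. The 5′ arm of miR-466 in the first column, at -1.99, is the one value with an adjusted p under 0.05, and it entered the test only through 2 libraries of the time course in which it is higher.

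With no filter on low counts 1 of 61 member arms was called, against 163 of 1064 arms (15.3%), and it is named after its values were seen. This arm, miR-466g-3p, had 3, 9, 15, 8, 2 and 2 counts in the first time course and 4, 1, 0, 0, 0 and 1 in the second, in the order of the time points. Without the filter its log2 fold change was -3.46 (edgeR adjusted p = 0.01611), and with the filter it was not tested, since only 1h-1, of the time course in which it was higher, had at least 10 counts. Its 3′ tags began at the same base in 91.11% of the counts and carried the seed TACAGAC, which no other member shared.

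Because the Sfmbt2 cluster is known from early embryonic cells, miRNAs of embryonic stem cells were counted beside it. The 11 listed miRNAs of the miR-290 to miR-295 and miR-302 and miR-367 clusters had 1 count in all 12 libraries, from miR-302a in 3h-2, and the other 10 were at 0. Counts of the families were thus found without counts of these. Among lists of other cell types, the vessel miRNAs (miR-126a, miR-143 and miR-145a) spanned 63030 to 144700 RPM in the first time course and 5645 to 16490 in the second, without overlap. This was the pattern of miR-143, which had nearly all of their counts, and of miR-145a, whereas miR-126a overlapped (142.6 to 364.3 and 101.9 to 248.5). A drop was not limited to vessel miRNAs. Neuronal miR-138 spanned 7780 to 21830 RPM in the first and 1425 to 5569 in the second, also without overlap. In RPM, 56 of all arms tested with family arms (12%) lay wholly lower in the second time course, and 13 (2.78%) wholly higher. Scaling by total miRNA count also gave 113 lower and 49 higher calls, against 58 and 94 with TMM. A lack of overlap was thus not particular to these miRNAs, and its cause was not tested. The neuron list as a whole overlapped (142900 to 312200 and 60760 to 165800), as did miR-124, miR-9, miR-128 and miR-132. Of these, miR-9 was below its value of the first time course at every time point. The miR-467 family, apart from 6h-2, was also lower in the second, and the part of vessel or neuronal RNA in this was not tested. Blood miRNAs (miR-451a, miR-144, miR-142 and miR-223) spanned 1206 to 11490 RPM in the first and 244 to 2495 in the second. Of these, miR-142 and miR-144 fell short of the first time course at 6 of 6 time points, but miR-451a and miR-223 at only 2 of 6. The oligodendrocyte miRNAs miR-219a and miR-338 spanned 2728 to 18210 over all libraries and overlapped between the time courses. Of 5 choroid plexus miRNAs, miR-211 was at 0 and the list spanned 1325 to 29030, with most counts from miR-34c.

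Repeats related to the member sequences could also give such tags. On the reverse strand of the 81 hairpins, 9 counts on 3 tags matched, which is 0.3219% of the counts on the forward strand, and 7 of the 9 were a single tag in 0.5h-1. Members were therefore read almost entirely from the strand of the hairpin. A match in another annotated transcript was found for 19 of the 196 tags, with 86 counts (3.076%). Of miRNAs outside the families that also consist of such repeats, miR-574 had 91 counts and miR-1187 had 0. Genomic repeats outside annotated transcripts were not searched.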

How the data were processed

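Per the labels, each of the 12 libraries holds small RNA of the hippocampus, and the study states that libraries were made from individual mice. The deposited values are raw counts: the authors removed the adapter and collapsed identical reads to tags, each with its count, without normalization. No aligner or genome enters these counts.

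A tag of at least 18 nt was counted where its whole length matched a hairpin of GENCODE M21 (GRCm38) on the forward strand, and its midpoint gave the arm. Tags shared between member names were split equally, and family arms counted each tag once. Exact matching leaves out tags that carry a sequencing error or a 3′ addition. Arms that reached 10 counts in 2 or more libraries were tested with edgeR 4.0.16 (R 4.3.3; quasi-likelihood, TMM, Benjamini-Hochberg 0.05): ECS against untreated over all 6 groups, and the time courses with the time point as a covariate. Depth was 439336 to 4282006 miRNA counts per library. The scripts were tested on simulated data. Alternatives were DESeq2 1.42.0, other scalings, filters, matching by the first 18 nt, single-name tags, lengths and leaving out each library. Genome sites of tags were not counted. Some sequences are not reported here.

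The replicate number in the labels is the time course. Deviations from group means correlated between time points with a mean of 0.5196 over 15 pairs (0.3084 to 0.7861), so the numbers pair the libraries. The 2 libraries of a time point were not duplicates of each other, with a chi-square per degree of freedom of at least 1652. Other pairs of libraries were not compared in this way. The arms named are those past the filter, the family arms and the largest tags. Members, marker lists and tests were chosen with earlier results of these data known. The 2 libraries of a time point differ in both mouse and time course, so p-values without the block measure both kinds of spread.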

Additional observations from a re-analysis of the deposited data

Results flagged for a closer look

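Levels in RPM were examined for a library apart from the other 5 of its time course, over 48 sets of 6 libraries (24 measures). In 15 sets the gap of 1 library passed Dixon's 95% limit, where chance gives about 1 in 20 for sets that are independent. These sets are not independent, since families hold their arms and members, and some members share all their tags. The number of flagged sets can therefore not be judged against that rate. All lie in 6h-2 or 1h-1.

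In the second time course, 6h-2 stood above the others. All 4 families together were at 195 there, against 83.9 in the next highest library. The miR-467 family was at 136 (next 42.6) and its 3′ arm at 57.5 (next 7.01), with miR-467a-3p and miR-467d-3p, which share their tags, at 27.6 each (next 3.15). miR-467a-5p and miR-467b-5p, which also share tags, were at 4.54 each (next 1.66). The miR-466 family was at 17.4 (next 7.06) and its 3′ arm at 15.9 (next 6.33). The 3′ arm of miR-297 was at 9.84 (next 3.04). This library had the fewest accepted reads, 1897490, and the highest percent of them on hairpins with a Mir symbol, 69.64%. The cause was not tested.

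In the first time course, 1h-1 stood above the others. The miR-669 family was at 63.9 there (next 23.4) and its 3′ arm at 30.8 (next 7.33), with miR-669a-3p and miR-669o-3p, which share their tags, at 14.3 each (next 3.15). The 3′ arm of miR-297 was at 12.5 (next 4). The 3′ arms of miR-669a and of miR-297 thus peaked in the same library, and the cause was not tested.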

How the results depend on the processing

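Against untreated, 0 member arms and 0 family arms were called at each time after ECS, also with the replicate block (the time course as a term), with DESeq2, without a filter and without any 1 library. Between the time courses the 0 member arms called became 1 with no filter on low counts (miR-466g-3p) and 1 with the first 18 nt of the tag matched (miR-669c-5p, 1.37, adjusted p = 0.03037), and stayed 0 without any 1 library. The 1 family arm called became 2 (the 5′ arms of miR-297 and miR-466) with the total miRNA count alone, with DESeq2 and with the first 18 nt matched, and 0 to 1 without 1 library. With no filter the 1 call was the 5′ arm of miR-297 (-2.44, adjusted p = 0.03009). The log2 fold change of the miR-297 3′ arm, 0.58, reversed to -0.0919 without 6h-2 and reached 1.1242 without 1h-1. Reverse-strand counts were 0.3219% of forward-strand counts and 0.07755% to 0.3645% without 1 library, the lowest without 0.5h-1. The mean level of the families, 126.3 RPM, was 127.5 with the first 18 nt matched, 114 with tags of 20 to 24 nt, 78.53 with tags that match no hairpin outside the families, and 111.2 to 133.5 without 1 library. Of the values of single arms under an alternative, 151 kept direction and side of the threshold, 8 passed it newly, 10 fell below it and 1 reversed. The alternative of tags with at most 10 genome sites was not run, since no genome was used here. Depth limits most values: 52 of the 62 member arms with a count had too few counts to be tested.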
